A study of Homo sapiens with 60 samples.

Results

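SW1783 cells were kept for 24 h with 1 of 5 herbal water extracts at the lowest dose, 20 µg/mL, and the 14 libraries made from them were compared as 1 pool with 3 libraries of vehicle-treated cells. The members were chosen by their titles. They are the low-dose libraries of Cnidii Rhizoma, Rehmanniae Radix Preparata, Cinnamomi Cortex and Astragali Radix (3 each) and of the formula Samul-tang (2), which with the 3 vehicle libraries make 17 of the 60 libraries of the series. SW1783 is an established human astrocytoma line, grown here in L-15 medium with fetal bovine serum. CPM below is a gene's count relative to the library total, scaled with TMM factors. Of 11 astrocyte markers, GFAP, AQP4, S100B, ALDH1L1 and SLC1A2 were near 0 with vehicle, at 0.0526, 0, 0.0797, 0.039 and 0.292 CPM. The others were higher: NES at 6.4, SLC1A3 at 22.0, SOX9 at 87.8, CLU at 132, GJA1 at 249 and VIM at 5888 CPM. The fibroblast gene COL1A1 was at 4120 CPM. The series profiled such preparations in this line at 20, 100 and 500 µg/mL, called the low, medium and high dose. The low dose of a further formula, Sagunja-tang, was left out by the same rule. The vehicle libraries carry DMSO, at 0.1% by the sample labels and at 2% by the series text, and no DMSO level is given for the extract libraries. All titles name batch B, but the first part of the sample code differs: B1 for vehicle, 5 for Cnidii and Rehmanniae, 6 for Cinnamomi and Astragali, and 7 for Samul-tang. What is common to the 5 extracts, the solvent and the sample set therefore cannot be told apart in any comparison with vehicle. Whether replicates came from separate cultures is not stated in the labels, and a p-value here reflects only how far the libraries of a group scatter, which may be technical.

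Several of the genes below belong to programmes that growing cells adjust within minutes to hours. NF-kB and AP-1 are transcription factors that switch on cytokine genes such as CXCL8 and immediate early genes after serum, cytokines or stress. YAP, with its DNA-binding partner TEAD, and TGF-beta signalling act on genes of the matrix and cytoskeleton, of which CCN2 is a standard readout. NEAT1 is a long noncoding RNA that stays in the nucleus and forms the scaffold of paraspeckles, bodies that hold RNA-binding proteins such as NONO and SFPQ.

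Promoter sequence is shown for CXCL8, which had the largest fall among the named genes, and for CCN2, the member of the TGF-beta and YAP list that fell most. Both runs are from RefSeq on GRCh38.p14, 5′ to 3′ on the gene's strand, and take the 250 bases before the RefSeq start less those that GENCODE places inside the gene. The CXCL8 run is chr4:73740319-73740505 (plus strand) and the CCN2 run is chr6:131951374-131951622 (minus strand). Capitals mark motif matches.
CXCL8: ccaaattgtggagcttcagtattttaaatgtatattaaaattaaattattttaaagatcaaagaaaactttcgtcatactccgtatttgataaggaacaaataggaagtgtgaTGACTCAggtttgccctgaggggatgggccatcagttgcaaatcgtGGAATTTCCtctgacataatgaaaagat
CCN2: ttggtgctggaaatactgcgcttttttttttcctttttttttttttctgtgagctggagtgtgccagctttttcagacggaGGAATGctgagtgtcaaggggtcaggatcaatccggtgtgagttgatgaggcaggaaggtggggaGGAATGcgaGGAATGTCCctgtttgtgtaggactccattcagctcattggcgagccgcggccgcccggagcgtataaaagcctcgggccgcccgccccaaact
In CXCL8 the capitals are an AP-1 match, 137 to 131 bases before the RefSeq start, and an NF-kB match, 91 to 83 bases before it. In CCN2 they are 3 TEAD matches, the first base of which lies 169, 104 and 95 bases before the start, and the last of them overlaps a match to the NF-kB pattern. Runs taken in the same way from PTGS2, which also fell, and from TNFRSF25, which rose, held no match to any motif searched. The run of HBEGF, which fell, held an NF-kB match 54 to 46 bases before the start. The motifs searched on both strands were TGANTCA for AP-1, GGAATG for TEAD, GGNNNTTCC for NF-kB and TGACGTCA for the cyclic AMP response element, and the CArG box by its name. Among all 35116 RefSeq promoters of 250 bases, 6.57% held the AP-1 motif, 11.9% the TEAD motif and 17.1% the NF-kB pattern. Of 24 tested members of the NF-kB list, 19 were matched to a promoter and 12 of these held the NF-kB pattern (63.2%), against 19.7% of all tested genes that were matched. The list was made of NF-kB targets, so this share says nothing about their fall. Of the 12, BIRC3, CXCL8, ICAM1 and IL6 were called lower at low dose, and the others were not called. Of the 634 matched genes called lower at low dose, 133 held the NF-kB pattern (21%). The AP-1 motif was in 38 of these 634 genes (5.99%), where all tested genes gave 4.18%. The TEAD motif was in 4 of 15 matched members of the TGF-beta and YAP list (26.7%) and in 56 of the 634 genes called lower (8.83%), where all tested genes gave 9.51%. A match describes the letters and is not a binding site.

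The pooled comparison asked what 5 different extracts at their lowest dose had in common against vehicle. CXCL8, LIF, PTGS2 and CCN2 were among the genes that fell most at low dose, and TNFRSF25, NEAT1 and MAP3K12 among those that rose most. Of 16549 genes tested with the edgeR quasi-likelihood test, 1434 had a Benjamini-Hochberg adjusted p under 0.05 (8.67%), 643 higher (3.89%) and 791 lower (4.78%). Such genes are said below to be called. The changes were small: the median absolute log2 fold change of called genes was 0.23, 108 of them changed at least 1.5-fold (0.653%) and 29 at least 2-fold (0.175%). All 14 low-dose libraries lay on 1 side of all 3 vehicle libraries for 1160 genes (7.01%), below for 706 (4.27%) and above for 454 (2.74%), and 930 of them were called (5.62%). The median over all genes tested was 0.01 on the log2 scale. With libraries scaled by library size alone, 74.2% of the calls were higher, against 44.8% here. The count fell to 457, 548 and 590 genes without the first, the second and the third vehicle library, and to 149 with the 3 Sagunja-tang low-dose libraries in the pool. The first of these 3 stood apart. Within the range of the pool it held 6 of the 15 genes with the largest rise and 0 of the 15 with the largest fall. The second held 13 and 11, and the third 12 and 11. The part of the first library in the count of 149 was not tested.

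**Figure D1:**
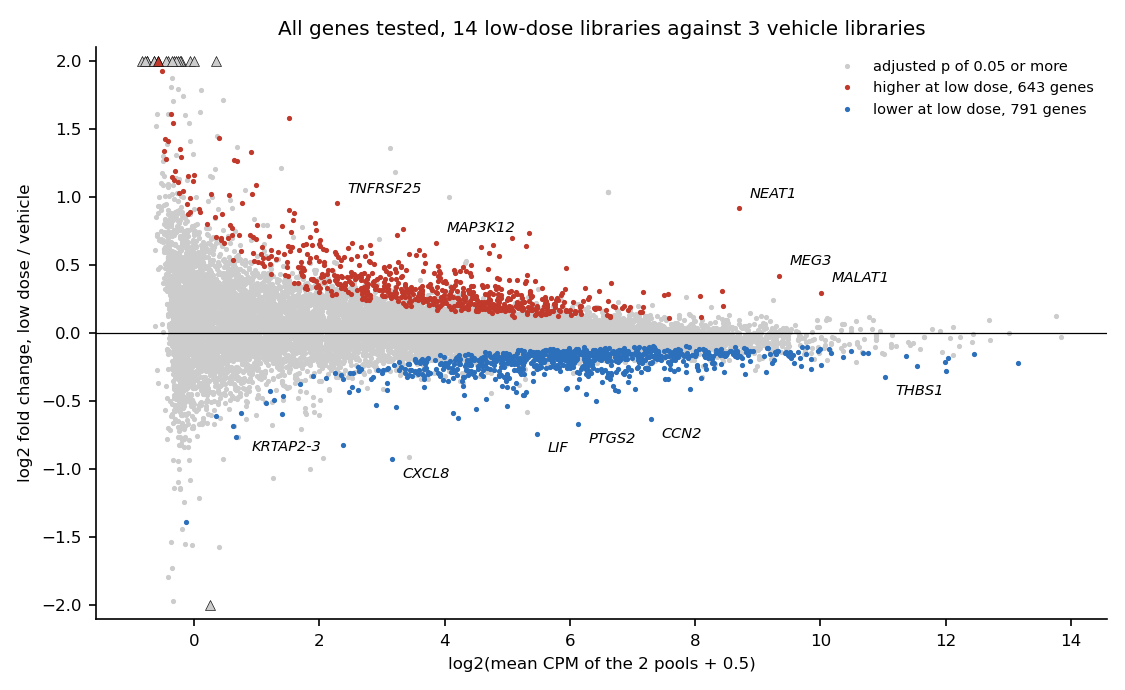
Each point is 1 of 16549 genes, with its mean level over both pools on the x axis (log2 of CPM + 0.5) and the log2 fold change of low dose over vehicle on the y axis. Red points are the 643 genes called higher and blue points the 791 called lower, and triangles stand for the 20 genes beyond a log2 size of 2, of which 1 was called. Most called genes lie close to 0, and NEAT1 stands out among abundant genes.

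CXCL8 (ENSG00000169429, chromosome 4, 73740506 to 73743716), which encodes the neutrophil-attracting chemokine interleukin 8, was at 12.1, 12 and 9.11 CPM in the vehicle libraries. In the 14 low-dose libraries it ran from 5.03 through a median of 5.54 to 7.49 CPM. Every low-dose library lay below every vehicle library, and the third vehicle library was nearest to them. The log2 fold change was -0.92 ± 0.10 (SE), with an edgeR adjusted p of 6.04e-07. This call did not survive the addition of the Sagunja-tang libraries, where CXCL8 was at 15.8, 21.6 and 23.2 CPM and the fold change of the larger pool was -0.40 (edgeR adjusted p = 0.863).

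LIF, a cytokine of the interleukin 6 family, was at 56.0, 58.0 and 51.4 CPM with vehicle. At low dose it ran from 26.7 through 33.1 to 40.7 CPM, and the groups did not overlap (-0.74 ± 0.10, edgeR adjusted p = 7.4e-05). Astragali and Samul-tang held the lowest values, at 28.8 ± 1.1 CPM (SD, n = 3) and 27.8 ± 1.4 CPM (SD, n = 2), and Cnidii was at 37.2 ± 3.3 CPM (SD, n = 3). PTGS2, the inducible cyclooxygenase of prostaglandin synthesis, was at 85.6, 87.6 and 82.8 CPM with vehicle and ran from 47.0 through 52.5 to 64.1 CPM at low dose. Again no library of the 2 groups overlapped (-0.67 ± 0.06, edgeR adjusted p = 4.34e-07). CCL2, a monocyte-attracting chemokine, was at 37.4, 37.4 and 36.4 CPM with vehicle and from 21.7 through 25.9 to 29.5 CPM at low dose (-0.54 ± 0.07, edgeR adjusted p = 2.94e-05).

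As a group, 11 of the 24 tested NF-kB target cytokines and inhibitors were called lower and 0 higher (14 and 0 at an unadjusted p under 0.05), where 4.78% of all genes were called lower. Their median log2 fold change was -0.23, against 0.01 over all genes. Members not called included NFKBIA (-0.07), TNFAIP3 (-0.16), NFKBIZ (0.09), NFKB1 (-0.08) and SOD2 (-0.03). The list's median was below 0 in each of the 14 low-dose libraries. For 8 of the 24 members all low-dose libraries were below all vehicle libraries, where 4.27% of all genes were. The count of 11 was 6, 6 and 7 without the first, the second and the third vehicle library and 2 with Sagunja-tang added.

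Among 24 immediate early transcription factors, 8 were called lower and 0 higher (13 and 1 at an unadjusted p under 0.05), with a median of -0.14. Of all genes, 4.78% were called lower and 3.89% higher. The list did not move as a whole. EGR1 was higher by 0.29 log2 units without passing (edgeR adjusted p = 0.055). FOS (-0.02), JUN (-0.02), MYC (-0.03) and NR4A1 (0.01) were near 0. MAFF, a small Maf factor, was at 26.4, 27.1 and 25.5 CPM with vehicle and ran from 15.2 through 17.6 to 20.6 CPM at low dose (-0.56 ± 0.06, edgeR adjusted p = 3.18e-06). FOSL1, a Fos-family subunit of AP-1, was at 286, 265 and 276 CPM with vehicle and from 179 through 215 to 242 CPM at low dose (-0.41 ± 0.08, edgeR adjusted p = 0.00165). For both genes the low-dose libraries were all below the vehicle libraries. FOSB and EGR3 were lower by 0.49 and 0.42 log2 units in this comparison, each with 13 of 14 low-dose libraries below all vehicle libraries. The list's count was 2 without the first vehicle library, 4 without the second and 1 with Sagunja-tang added.

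Genes that respond to or restrain ERK, the growth factor kinase, were called lower in 7 of 13 cases, where 4.78% of all genes were. SPRY1, 1 member, was called higher from a level under 1 CPM. It falls outside the naming rule and was chosen after its value was seen. CCND1, the cyclin that starts the cell cycle after growth signals, was at 208, 213 and 215 CPM with vehicle and ran from 148 through 167 to 184 CPM at low dose (-0.34 ± 0.05, edgeR adjusted p = 6.71e-05). SPRY4, an inhibitor of receptor tyrosine kinase signalling, changed by the same size (-0.34 ± 0.05, edgeR adjusted p = 0.000117). The phosphatase genes DUSP5 (-0.32) and DUSP6 (-0.27), which switch off ERK, were called lower too. The count of 7 was 4 without the first vehicle library and 2 with Sagunja-tang added. HBEGF, a ligand of the EGF receptor, was at 43.2, 44.4 and 42.3 CPM with vehicle and from 29.1 through 31.8 to 34.4 CPM at low dose, with no overlap (-0.45 ± 0.04, edgeR adjusted p = 1.04e-07).

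All 20 members of the TGF-beta and YAP list had a log2 fold change below 0, and 10 of them were called lower, with a median of -0.18. The share of all genes called lower was 4.78%, which also stands beside the plasminogen list below. CCN2, a secreted matrix protein, was at 189, 194 and 188 CPM with vehicle. It ran from 108 through 122 to 137 CPM at low dose, so that all 14 libraries lay far below vehicle (-0.63 ± 0.05, edgeR adjusted p = 1.04e-07). THBS1, the matrix protein thrombospondin 1, was at 2338, 2294 and 2365 CPM with vehicle and from 1627 through 1883 to 2035 CPM at low dose (-0.32 ± 0.05, edgeR adjusted p = 8.31e-05). PLAU, the urokinase that activates plasminogen, was at 137, 136 and 137 CPM with vehicle and from 99.9 through 107 to 115 CPM at low dose (-0.36 ± 0.04, edgeR adjusted p = 2.02e-06). Of 9 markers of fibroblasts and smooth muscle, the contractile genes ACTA2 (-0.27) and TAGLN (-0.26) were called lower and COL3A1 (0.26) higher. TAGLN is also a member of the TGF-beta and YAP list and is counted among its 10 called genes. The TGF-beta and YAP count of 10 was 4, 4 and 5 without the first, the second and the third vehicle library and 1 with Sagunja-tang added. The 9 markers summed to 6961 to 7000 CPM with vehicle and 6273 to 6895 CPM at low dose, and the part of this in the matrix genes was not tested. In the list of plasminogen activators and serpins 5 of 11 were called lower and 1, SERPINB3, higher, and those lower were 2 without the first vehicle library, 3 without the second and 1 with Sagunja-tang added.

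Other strongly lower genes serve the cytoskeleton, adhesion or signalling. DLC1, a tumour suppressor gene, was at 98.0, 99.4 and 100.2 CPM with vehicle and from 63.2 through 69.4 to 79.4 CPM at low dose (-0.50 ± 0.05, edgeR adjusted p = 4.68e-07). NEDD9, a focal adhesion scaffold, fell by 0.54 log2 units, and S1PR1, a receptor of sphingosine 1-phosphate, fell by 0.53. KRTAP2-3, a keratin-associated protein gene of low level, was at 6.25, 5.92 and 5.90 CPM with vehicle and from 2.18 through 3.39 to 4.81 CPM at low dose (-0.82 ± 0.17, edgeR adjusted p = 0.00313). ANGPTL4, a secreted inhibitor of lipoprotein lipase, was at 21.3, 21.7 and 22.5 CPM with vehicle and from 10.6 through 14.7 to 18.5 CPM at low dose (-0.62 ± 0.11, edgeR adjusted p = 0.00134). For these genes no low-dose library reached a vehicle library.

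Of 26 genes of mitosis and the kinetochore, 9 were called lower and 0 higher, with a median of -0.10, where 4.78% of all genes were called lower. PLK1, a kinase that drives mitosis, was at 171, 152 and 158 CPM with vehicle and ran from 121 through 133 to 146 CPM at low dose (-0.26 ± 0.05, edgeR adjusted p = 0.00116). MKI67, a marker of cycling cells, was lower by 0.22 (edgeR adjusted p = 0.0224) with 13 of 14 libraries below all vehicle libraries. In the list of DNA replication and S phase genes 0 of 26 were called in either direction by edgeR and by DESeq2, and 2 had an unadjusted p under 0.05 in edgeR. The mitosis count of 9 was 1 without the first vehicle library, 5 without the second, 0 with Sagunja-tang added and 14 with offsets that correct each library for transcript GC content. In bulk RNA, fewer cells of a kind and less RNA per cell cannot be told apart.

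**Figure D2:**
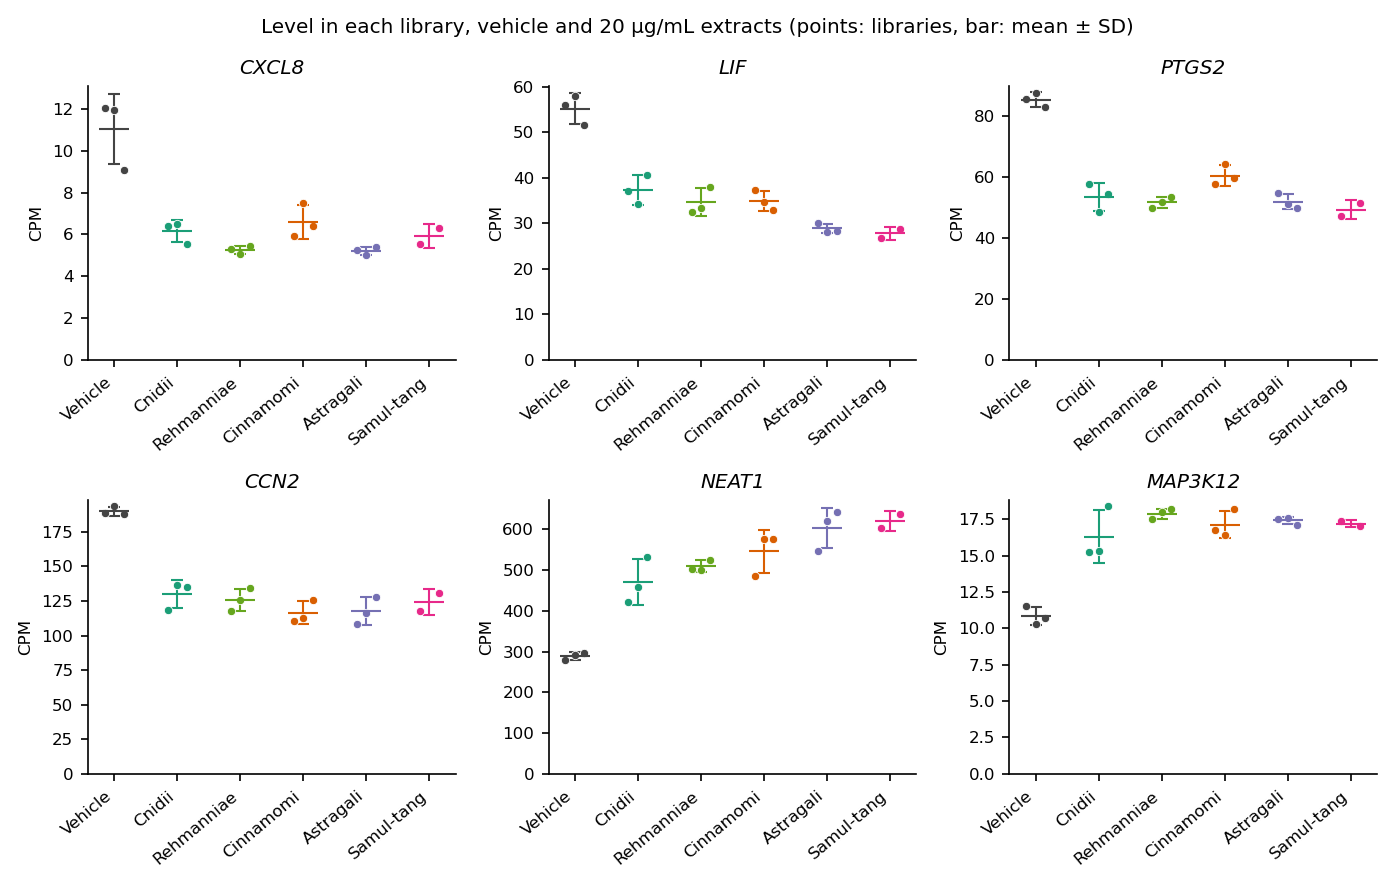
Points are libraries and bars are group means ± SD in CPM, for vehicle (n = 3), Cnidii, Rehmanniae, Cinnamomi and Astragali low dose (n = 3 each) and Samul-tang low dose (n = 2). CXCL8, LIF, PTGS2 and CCN2 lie below vehicle, and NEAT1 and MAP3K12 above it, in every low-dose library.

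NEAT1 (ENSG00000245532, chromosome 11, 65422774 to 65445540) was the most abundant of the 15 most strongly higher genes. It was at 279, 292 and 296 CPM with vehicle and ran from 421 through 539 to 642 CPM at low dose, a 1.89-fold difference of means. No library overlapped (0.92 ± 0.11, edgeR adjusted p = 7.72e-05). The extract means ran from 470 ± 56 CPM for Cnidii and 509 ± 14 for Rehmanniae through 546 ± 53 for Cinnamomi to 603 ± 50 for Astragali (SD, n = 3 each) and 621 ± 25 for Samul-tang (SD, n = 2). Between extracts NEAT1 did not pass the test (edgeR adjusted p = 0.0847).

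MEG3, a maternally expressed noncoding RNA, was at 554, 545 and 570 CPM with vehicle and from 676 through 758 to 784 CPM at low dose (0.42 ± 0.04, edgeR adjusted p = 9.83e-07). MALAT1, a nuclear RNA found at splicing speckles, was at 906, 910 and 955 CPM with vehicle and from 971 through 1124 to 1326 CPM at low dose (0.30 ± 0.07, edgeR adjusted p = 0.00674). Every low-dose library was above every vehicle library for both. MIAT, another nuclear RNA, rose from a low level (0.66, edgeR adjusted p = 0.000599). Of 18 tested nuclear and long noncoding RNAs 5 were called higher and 1, UCA1, lower, where 3.89% of all genes were called higher. The 5 were 3 without the first or the second vehicle library and 2 with Sagunja-tang added.

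Over all 2007 long noncoding genes tested, 63 were called higher (3.14%) and 13 lower (0.648%), with a median of 0.06. Of all genes tested, 3.89% were called higher and 4.78% lower, so the share called higher was not above that of all genes. Of 809 pseudogenes, 4.70% were called higher and 0.989% lower, also with a median of 0.06. All 14328 long noncoding genes of the table, tested or not, made up 0.920% to 0.936% of counts with vehicle and 0.999% to 1.21% at low dose. No library overlapped, and the exact permutation test over 680 splits gave p = 0.00147, the smallest it can give (0.00882 adjusted over 6 library measures, two-sided). NEAT1, MALAT1 and MEG3 together went from 0.168% to 0.177% with vehicle to 0.205% to 0.269% at low dose. The first Samul-tang library stood apart at 1.21%, with 579 CPM in each of 3 long noncoding genes that have identical counts, where other libraries had 30.5 to 154 CPM. Its excess was not limited to long noncoding genes. RN7SL2 was at 88.9, RN7SL1 at 78.5, RMRP at 7.78 and RPPH1 at 5.92 CPM in it. The other libraries reached at most 12.2, 11.5, 0.80 and 0.78 CPM for these genes. Without NEAT1, MALAT1 and MEG3 the share of the rest was 0.752% to 0.765% with vehicle and 0.783% to 0.946% at low dose, which did not pass (exact permutation p = 0.0515). With those 3 genes of identical counts left out as well, it was 0.731% to 0.748% with vehicle and 0.764% to 0.797% at low dose (exact permutation p = 0.00147). Both splits were chosen after the data were seen.

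Of 12 tested protein genes of the paraspeckle, 3 were called lower and 0 higher: NONO (-0.14), SFPQ (-0.15) and DAZAP1 (-0.19). That count was 0, 1 and 0 without the first, the second and the third vehicle library, 5 without the third Cnidii or the first Cinnamomi library, and 6 with DESeq2. Among 23 SR proteins and CDC-like kinases, which set splicing, 4 were called higher and 1 lower. For both lists, 3.89% of all genes were called higher and 4.78% lower. CLK2, a kinase of SR proteins, was at 14.3, 14 and 13.1 CPM with vehicle and from 15.9 through 18.1 to 19.0 CPM at low dose (0.37 ± 0.06, edgeR adjusted p = 0.000152). LUC7L, a U1 snRNP-associated splicing protein, was at 20.4, 19.7 and 22.3 CPM with vehicle and from 24.0 through 26.8 to 28.7 CPM (0.35 ± 0.06, edgeR adjusted p = 0.000201). The list's median was -0.01, and it was 0.04 with library size alone as the scaling.

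Protein-coding genes were among the largest rises too. TNFRSF25, a death receptor of the TNF receptor family, was at 2.41, 3.02 and 3.46 CPM with vehicle and ran from 4.64 through 5.82 to 6.66 CPM at low dose (0.95 ± 0.12, edgeR adjusted p = 8.59e-06). MAP3K12, a kinase upstream of JNK, was at 11.5, 10.3 and 10.7 CPM with vehicle and from 15.2 through 17.4 to 18.4 CPM (0.66 ± 0.06, edgeR adjusted p = 1.04e-07). MAN2C1, a cytosolic mannosidase, was at 20.7, 21.1 and 21.3 CPM with vehicle and from 29.9 through 33.2 to 36.0 CPM (0.64 ± 0.05, edgeR adjusted p = 4.94e-08). In all 3 the 14 low-dose libraries lay above vehicle without overlap. GABRE, a GABA-A receptor subunit, was at 31.2, 29.5 and 30.7 CPM with vehicle and from 42.1 through 46.4 to 53.4 CPM (0.64 ± 0.07, edgeR adjusted p = 1.1e-06). The pseudogenes HERC2P2 (0.74), HERC2P3 (0.72), NSUN5P1 (0.70) and GTF2IP20 (0.62) and the readthrough gene JMJD7-PLA2G4B (0.65) were among the 15 largest rises, but reads shared with their near-identical or overlapping genes make these values uncertain.

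**Figure D3:**
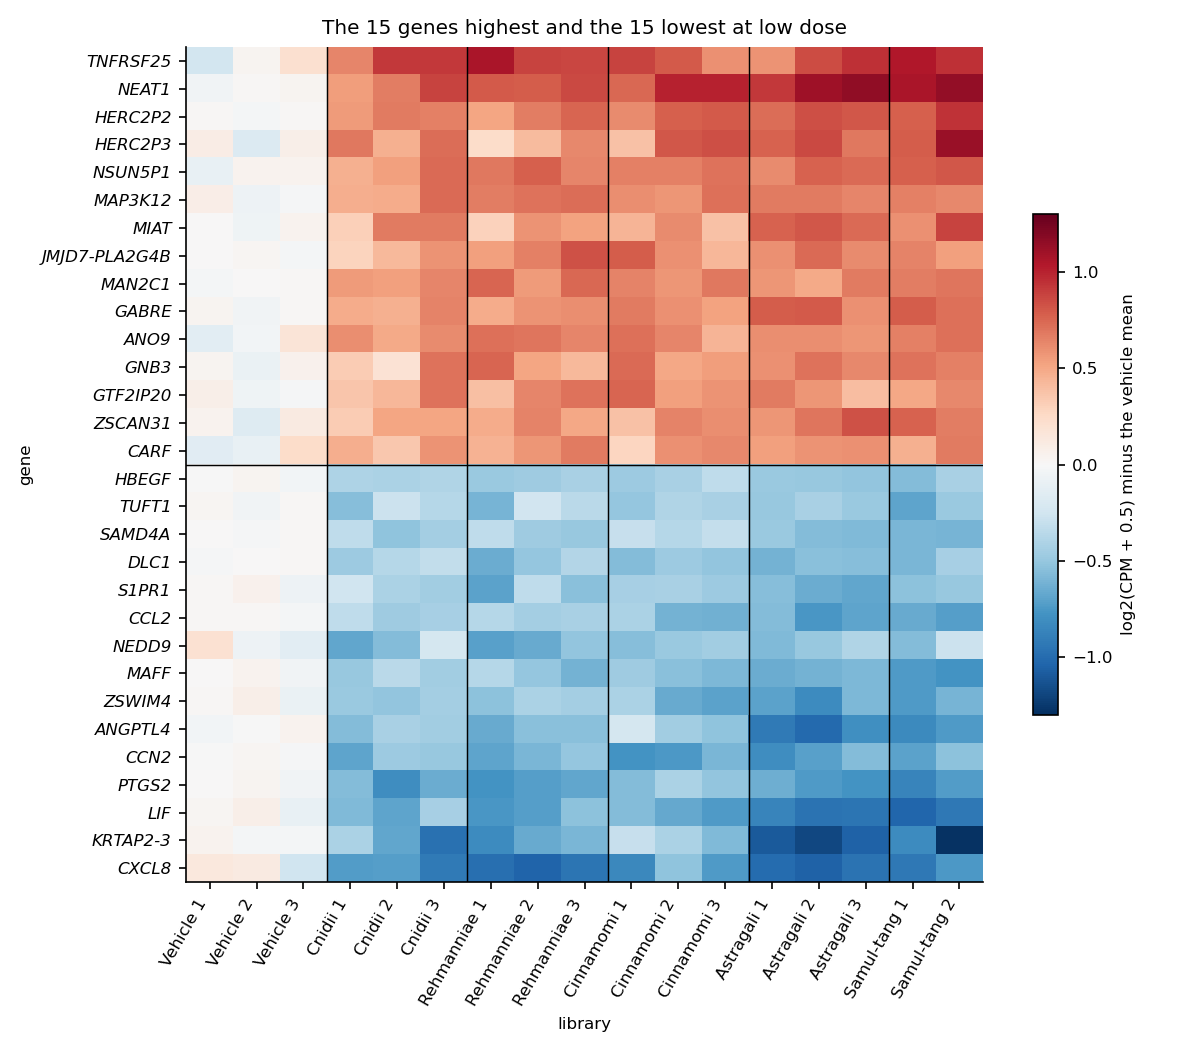
Rows are the 15 genes with the largest rise and the 15 with the largest fall under the naming rule, columns are the 17 libraries, and colour is log2(CPM + 0.5) minus the vehicle mean. Every low-dose column has the sign of its gene's pooled change, since the rule chose genes without overlap, and CXCL8, KRTAP2-3 and NEAT1 show the deepest colours.

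**Figure D4:**
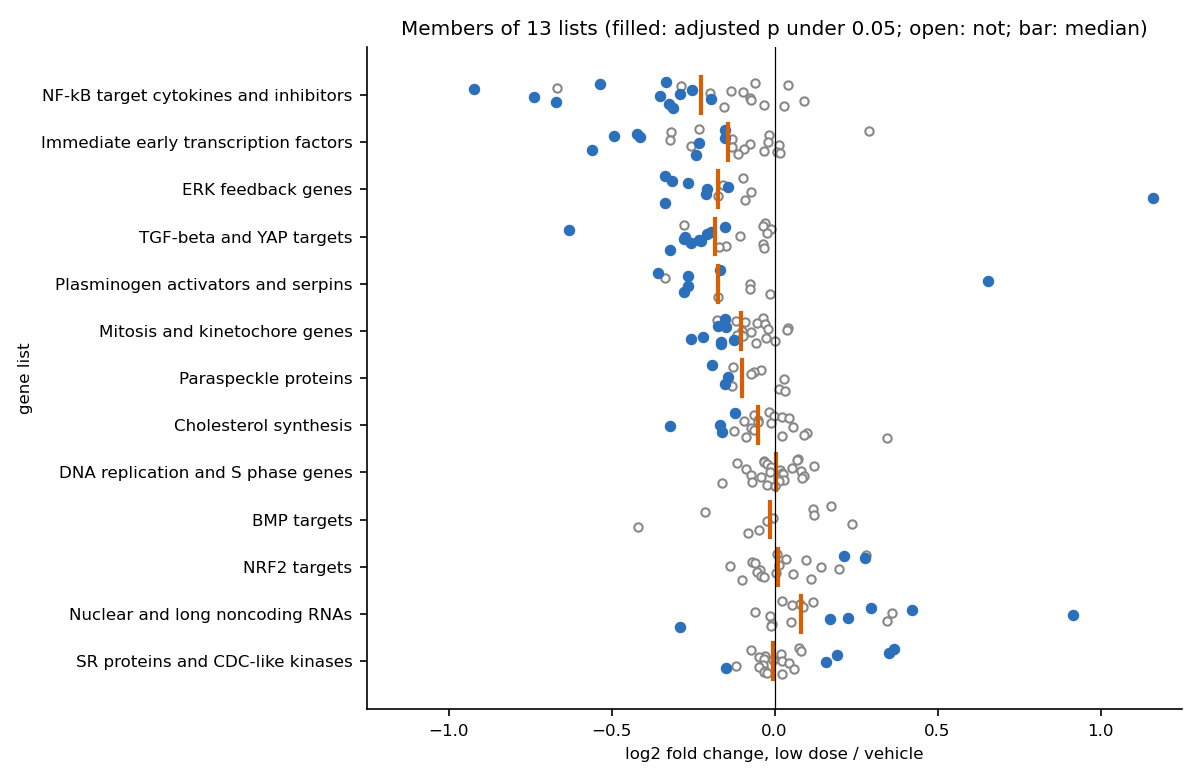
Points are tested members of 13 gene lists on the log2 fold change of low dose over vehicle, filled where the edgeR adjusted p was under 0.05, and bars are list medians. The medians of the NF-kB, ERK and TGF-beta and YAP lists lie lowest, at -0.23, -0.17 and -0.18, and the BMP and S phase lists hold no filled point.

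Fitted one by one against the same 3 vehicle libraries, the extracts differed in how many genes were called. Cnidii had 368 (2.22%), Rehmanniae 790 (4.77%), Cinnamomi 1325 (8.01%), Astragali 3163 (19.1%) and Samul-tang 2980 (18%). The NF-kB list had 5, 11, 7, 13 and 9 members called lower in that order, with medians of -0.15, -0.26, -0.12, -0.36 and -0.28. The TGF-beta and YAP list had 3, 7, 10, 11 and 10, and the mitosis list had 0, 10, 10, 7 and 13. The share of all genes called lower was 0.918%, 2.61%, 4.68%, 10.9% and 10.3%. Of the nuclear and long noncoding RNAs, 2, 4, 6, 5 and 6 were called higher in the same order, where 1.31%, 2.16%, 3.33%, 8.18% and 7.69% of all genes were. The 5 comparisons share the vehicle libraries. Leaving out 1 vehicle library took Cnidii to between 172 and 213 calls, Rehmanniae to between 374 and 460, and Cinnamomi to between 635 and 730, and without the first vehicle library Astragali had 1991 and Samul-tang 1944. Leaving out a library of the extract gave 206 for Cnidii without its second and 187 without the third, 433 for Rehmanniae without its first and 448 without its second, 3150, 587 and 652 for Cinnamomi without its first, its second and the third, and 1107 and 1001 for Samul-tang without its first and second.

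The test of any difference between the 5 extracts, on the 14 low-dose libraries alone, called 687 of 16699 genes (4.11%). The count depended on single libraries, from 49 without the second Rehmanniae library to 2776 without the first Cinnamomi library. That Cinnamomi library differed from its replicates with GC content (Spearman correlation of 0.40 across genes) and from them in scatter by 1.78 to 2.06, where other replicate pairs reached at most 1.15. Offsets for GC content left 41 genes. Against the vehicle mean, the log ratio of a library followed GC content with a Spearman correlation across genes from -0.02 to 0.17 in Cnidii and Rehmanniae and from -0.25 to -0.36 in Astragali, Samul-tang and the other 2 Cinnamomi libraries. Its part in the pooled and single-extract counts was not tested beyond these offsets, with which the pooled count was 2128.

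Contrasts within and between sample sets, chosen after the data were seen, divide this test. Within set 5, Rehmanniae against Cnidii gave 0 called genes by edgeR and 515 at an unadjusted p under 0.05. Within set 6, Astragali against Cinnamomi gave 14 (0.0838%). The Cinnamomi and Astragali set differed from the Cnidii and Rehmanniae set in 1467 genes (8.78%), or 72 with GC offsets and 4037 without the first Cinnamomi library. Samul-tang differed from the Cnidii and Rehmanniae set in 1193 genes (7.14%), or 38 with GC offsets and 2681 without the first Cinnamomi library. It differed from the Cinnamomi and Astragali set in 1 gene (0.00599%), RBM3, a cold-inducible RNA-binding protein (-0.30, edgeR adjusted p = 0.00492), or in 3 with GC offsets and 7 without the first Cinnamomi library.

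The 14 genes that differed between Cinnamomi and Astragali, within 1 sample set, were DHRS3, SAMD11, ID3, ID1, SELENOW and SYTL5, lower with Cinnamomi, and SERPINB2, HMOX1, STC2, NDRG1, HAS3, ANGPTL4, TSLP and MOK, higher with it. No gene met the rule of a 2-fold difference between extracts, so these were chosen after their values were seen. DHRS3, an enzyme that reduces retinal and is induced by retinoic acid, was at 14.9, 17.1 and 17.6 CPM with Cinnamomi and 25.0, 25.7 and 27.2 with Astragali. With vehicle it was at 27.6, 28.7 and 26.9 CPM, and the other 3 extracts had 23.0 to 29.8 CPM, so that the Cinnamomi libraries stood alone. The difference of Astragali from Cinnamomi was 0.66 ± 0.07 (edgeR adjusted p = 6.14e-05). SAMD11 was at 66.4, 57.1 and 56.4 CPM with Cinnamomi and 81.0, 81.7 and 80.1 with Astragali (0.43 ± 0.05, edgeR adjusted p = 0.000387), near vehicle at 77.4, 82.3 and 81.5 CPM.

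ID3, an inhibitor of basic helix-loop-helix factors and a target of BMP signalling, was at 144, 131 and 138 CPM with Cinnamomi and 169, 188 and 210 with Astragali (0.46 ± 0.06, edgeR adjusted p = 0.00251). With vehicle it was at 181, 182 and 183 CPM. SERPINB2, an inhibitor of plasminogen activators, was at 40.6, 41.7 and 38 CPM with Cinnamomi and 27.3, 26.8 and 28.1 with Astragali (-0.55 ± 0.06, edgeR adjusted p = 2.61e-05), where vehicle had 43.3, 45.3 and 39.9. Cnidii (33.6 to 38.5 CPM), Rehmanniae (33.3 to 34.4 CPM) and Samul-tang (30.7 and 31.5 CPM) also lay below every vehicle library for SERPINB2. HMOX1, heme oxygenase 1, was at 86.8, 79.3 and 79.5 CPM with Cinnamomi and 67.2, 63.6 and 65.2 with Astragali (-0.33 ± 0.05, edgeR adjusted p = 0.00162), and vehicle had 77.1, 79.7 and 81.6 CPM.

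**Figure D5:**
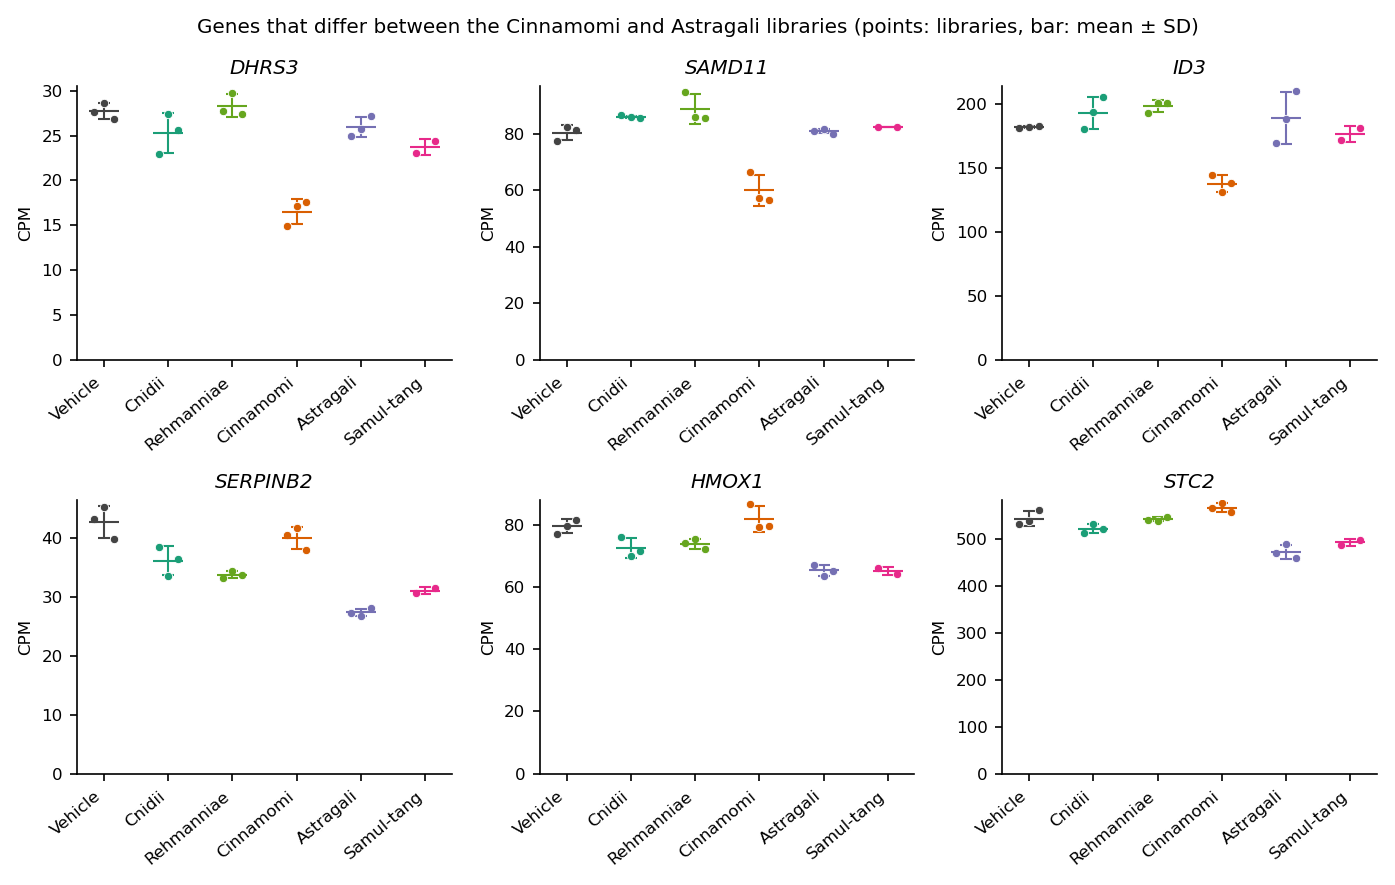
Points are libraries and bars are group means ± SD in CPM for 6 genes that differed between Cinnamomi and Astragali low dose (vehicle and the first 4 extracts n = 3, Samul-tang n = 2). Cinnamomi stands below all other groups for DHRS3, SAMD11 and ID3, and Astragali below vehicle for SERPINB2, HMOX1 and STC2.

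The high dose of the same 5 extracts was compared with the low dose, which lies within the sample sets and does not use vehicle. It called 1491 of 15768 genes (9.46%), 727 higher (4.61%) and 764 lower (4.85%) at high dose. Without Cnidii, Rehmanniae or Samul-tang it called 981, 788 and 841. Without Cinnamomi it called 1682, but only 843 of these were among the 1491. Without Astragali it called 2013, with 1277 among the 1491. The list counts at high dose are given with all 5 extracts only. CXCL8 was higher at high than at low dose, at 6.47 through 10.1 to 15.6 CPM over the 14 high-dose libraries (0.85 ± 0.10, edgeR adjusted p = 1.96e-06), and its values at medium dose were 6.15 through 7.85 to 9.23 CPM. LIF (0.62, edgeR adjusted p = 0.000552), KRTAP2-3 (0.58, edgeR adjusted p = 0.0059) and ANGPTL4 (0.61, edgeR adjusted p = 0.0242) were also higher at high dose, ANGPTL4 with a mean of 64.0 CPM in the Cinnamomi high libraries against 13 to 18.3 in the other extracts.

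NEAT1 was lower at high than at low dose, at 326 through 362 to 508 CPM (-0.51 ± 0.04, edgeR adjusted p = 1.37e-09), with 385 through 480 to 631 CPM at medium dose. For CCN2 the high dose did not pass the test (-0.23, edgeR adjusted p = 0.149), and neither did MAP3K12 (-0.02, edgeR adjusted p = 0.791). In the NF-kB list 9 of 23 tested members were higher at high dose and 0 lower, and 6 of 22 immediate early and 5 of 13 ERK genes were higher. In the TGF-beta and YAP list 1 of 20 was higher and 2 were lower. The high-dose comparison shares its 14 low-dose libraries with the comparison against vehicle, so the 2 are given side by side only.

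The series holds 5 further low-dose libraries outside the pool. With vehicle at 279 to 296 CPM, NEAT1 was at 507 CPM in the 1 Angelicae Gigantis Radix library, at 538 in the 1 Paeoniae Radix library and at 474, 576 and 678 CPM in Sagunja-tang. With vehicle at 188 to 194 CPM, CCN2 was at 148, 134 and at 94.2, 133 and 130 CPM in the same libraries. CXCL8 was at 8.39 CPM with Angelicae and 5.51 CPM with Paeoniae, below vehicle, while the 3 Sagunja-tang libraries were above it. These values use the same vehicle libraries and were not tested here.

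The 17 libraries held 22960679 to 26994841 counts, and 22932 to 23661 genes had a count. Of the other 5 library measures, among them the total count and the shares of mitochondrial and ribosomal protein genes, none passed the exact permutation test (adjusted p of 0.296 to 0.754). The summed astrocyte markers were at 6297 to 6526 CPM with vehicle and 5505 to 6059 CPM at low dose, a sum made up mostly of VIM, while SLC1A3, a glutamate transporter of astrocytes, was at 22.0 CPM with vehicle and at a median of 24.9 CPM at low dose. Of the 7 markers of microglia and macrophages, AIF1 was at 0 with vehicle, but CD68 was at 162, PTPRC at 8.52 and CSF1R at 3.03 CPM. Of the 6 oligodendrocyte markers, MOG and MAG were at 0 with vehicle and MBP was at 5.65 CPM.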

How the data were processed

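The authors deposited RSEM expected counts per gene. Per the labels' protocols, RNA of SW1783 cells was made into directional mRNA libraries and sequenced as paired reads on an MGI instrument. The submitters' processing notes name FastQC 0.11.9, Trim Galore 0.6.5, STAR 2.7.3a, RSEM 1.3.3 and the build hg38 (GRCh38), and the annotation release was not given in the sources used here. Its table has 279 columns, of which 219 belong to no sample described here and were left out. Values were rounded to whole counts (90.67% were exactly whole before).

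Genes were filtered with filterByExpr, scaled with TMM (factors of 0.971 to 1.016) and tested with glmQLFit (robust) and glmQLFTest in edgeR 4.0.16 under R 4.3.3 with Benjamini-Hochberg adjustment, with 1 coefficient for the pool (15 residual degrees of freedom) or 1 per extract. The pooled biological coefficient of variation was 0.058. SE is the size of the log2 fold change divided by the root of F. CPM used TMM factors of all 60 libraries. Symbols came from an Ensembl name table and positions from GENCODE 29. Alternatives used DESeq2 1.42.0 and limma 3.58.1, and tables and plots used Python 3.11.15. In simulated counts, changes were placed only in genes above a minimum mean count. The pooled test on 16549 genes recovered 74% of the 1.25-fold changes, 90% of the 1.5-fold, 96% of the 2-fold and 100% of the 4-fold ones, and made 8 false calls. The simulated libraries were drawn independently. They lacked the GC trends of the real libraries and their correlation within an extract (0.17 by limma), so these rates need not hold here.

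Genes named are the 15 largest changes in each direction among called genes with at least 5 CPM in the higher pool, no overlap between pools and a symbol that is no clone name (836 genes qualified), up to 4 called members of each of 44 lists with at least 1 CPM, and genes that earlier results of these data name. The members and lists were chosen with earlier results of these data known. Same-numbered replicates of different groups deviated together with correlations of -0.13 to 0.15, so the numbers were not taken as pairs.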

Additional observations from a re-analysis of the deposited data

Results flagged for a closer look

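SAMD11 lay on opposite sides of vehicle in different extracts. It was above every vehicle library (77.4, 82.3 and 81.5 CPM) in all Cnidii (85.7 to 86.5 CPM), Rehmanniae (85.7 to 94.9 CPM) and Samul-tang libraries (82.4 and 82.5 CPM), and below every vehicle library in the Cinnamomi libraries (56.4 to 66.4 CPM). The test of a difference between extracts gave an edgeR adjusted p of 4.54e-05. The Samul-tang and Cnidii values, and those of the second and the third Rehmanniae library, exceed the highest vehicle value by less than the spread between vehicle libraries. Cinnamomi lay furthest from vehicle.

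ID3 was above every vehicle library (181, 182 and 183 CPM) in the Rehmanniae libraries (193, 201 and 201 CPM) and below every one in the Cinnamomi (131 to 144 CPM) and Samul-tang libraries (172 and 180.7 CPM, where the lowest vehicle library was at 181.5 CPM), with an edgeR adjusted p between extracts of 0.00407. The second Samul-tang library lay below the lowest vehicle library by less than the spread between vehicle libraries. Both genes were also different between Cinnamomi and Astragali, which share a sample set.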

How the results depend on the processing

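All 30 genes with the largest changes kept their direction in all 36 alternatives to the pooled test. Their choice required no overlap between the pools, and most alternatives refit the same libraries, so this direction was close to fixed beforehand. The 30 genes kept an adjusted p under 0.05 except with Sagunja-tang added (HERC2P2, HERC2P3, CARF, CXCL8, ANGPTL4, NEDD9 and CCL2 lost) and with all groups in the fit (HERC2P3 lost). The pooled count of 1434 became 2649 with the extracts weighted equally and 560 with limma voom and the extract as a random block. It was 665 with all groups in the fit, 1922 with all groups but not the first Sagunja-tang low library, and 149 with Sagunja-tang added. It was 2456 with GC offsets and without the first Cinnamomi library (an alternative added after seeing the data), and 457 to 1684 when 1 library was left out. With all groups in the fit the single extracts gave 68 for Cnidii, 165 for Rehmanniae, 204 for Cinnamomi, 675 for Astragali and 501 for Samul-tang. Fitting vehicle and 1 extract alone, Cnidii gave 681, Rehmanniae 1232, Cinnamomi 434 and Samul-tang 4938. Leaving out 1 library gave 172 to 262 for Cnidii, 374 to 677 for Rehmanniae, 587 to 3150 for Cinnamomi, 1991 to 2770 for Astragali and 1001 to 2175 for Samul-tang. The count between extracts of 687 became 2205 without a filter, 1415 with the DESeq2 likelihood ratio test, 41 with GC offsets and 49 to 2776 when 1 library was left out. High against low dose gave 981, 788 and 841 without Cnidii, Rehmanniae and Samul-tang. Without Cinnamomi it gave 1682, of which 843 were among the 1491 of the full comparison. The difference in the long noncoding share, 0.130 percentage points, was 0.118 to 0.134 when 1 library was left out, and with 2 vehicle libraries the exact permutation p was the smallest that design allows and came to 0.05 once adjusted over 6 measures, so those values say nothing about stability. Apart from the designs with fewer samples, the cause of these shifts was not tested. With a replicate block, which the numbers did not support as a pairing, the pooled count was 1336 and the count between extracts 913. The 3 vehicle libraries limit every comparison with vehicle.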

Other observations

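Other gene groups moved little or in part. Beside the counts below stand the shares of all genes: 3.89% were called higher and 4.78% lower at low dose. At high against low dose the shares were 4.61% higher and 4.85% lower. Of 20 genes of the unfolded protein response, 2 were called lower: HERPUD1, a factor of endoplasmic reticulum degradation, was at 116, 127 and 129 CPM with vehicle and ran from 86.8 through 92.8 to 102 CPM at low dose (-0.43 ± 0.04, edgeR adjusted p = 2.23e-07), and the chaperone gene DNAJB9 was lower by 0.30. Of 22 genes in the list for cholesterol synthesis, 4 were called lower, among them INSIG1 (-0.17, edgeR adjusted p = 0.00898), a sterol-responsive regulator, with a list median of -0.05. Among 24 hypoxia targets 2 were called higher, PFKFB4 (0.40, edgeR adjusted p = 7.75e-06) and DDIT4 (0.33, edgeR adjusted p = 0.00489), and 3 lower. Of 26 interferon response genes, STAT2 (0.34) and IFI44L (0.24) were called higher and IFIT3 (-0.24) and IRF1 (-0.16) lower.

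MT2A, a metallothionein, was at 539, 462 and 464 CPM with vehicle and from 327 through 399 to 430 CPM at low dose (-0.30 ± 0.06, edgeR adjusted p = 0.00122), and its paralogs can share reads. All 5 tested metallothionein and zinc export genes were lower at high than at low dose, with a median of -0.79. IGFBP3, which binds insulin-like growth factors, was lower by 0.28 (edgeR adjusted p = 0.000175). Of the 20 NRF2 targets 2 were called higher at low dose, AKR1C2 (0.28) and AKR1C1 (0.21), and 15 of 20 at high against low dose, with a median of 0.31. None of 10 BMP targets, 14 histone genes, 15 genes of nonsense-mediated decay or 13 mitochondrially encoded genes were called in the edgeR test of low dose against vehicle, and 3, 1, 6 and 0 of them had an unadjusted p under 0.05. DESeq2 called 2 of the 15 genes of nonsense-mediated decay lower and 0 of the other lists named here. The pooled result hides that the BMP list differed by extract. With Cinnamomi 3 of the 10 were called lower (median -0.20), where 4.68% of all genes were. With Samul-tang 2 were called higher (7.69% of all genes), and with Astragali 1 in each direction. Between extracts 3 of the 10 were called, against 4.11% of all genes.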
